A study of Mus musculus with 6 samples.

Results

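The p53 pathway was followed through 36 genes, those encoding p53, its regulators and its transcriptional targets, in kidney cortex RNA-seq of I-PpoI and WT mice. The genes were chosen by name from the pathway, and all 36 of the 36 names were found among the 24421 genes of the count table. The I-PpoI group (3 libraries, titled PT-I_Ppo-1) came from mice that express the endonuclease I-PpoI in proximal tubular epithelial cells, and the WT group (3 libraries, titled Wild-Type) from mice without it. I-PpoI is a homing endonuclease from a slime mould that cuts a long recognition site found in the repeated ribosomal RNA genes and so leaves DNA double-strand breaks. The promoter or Cre line behind the expression, the strain, sex and age of the mice and the time under expression are not given in the sources used here, which also do not say that separate mice were used for separate libraries, so the p-values reflect library-to-library spread, which may be technical. Cortex is a mixed tissue, and in bulk RNA fewer cells of a type and less RNA per cell cannot be told apart.

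p53, encoded by Trp53, is a transcription factor that is made continuously and destroyed continuously, because the ubiquitin ligase Mdm2 marks it for the proteasome. DNA double-strand breaks activate the kinases ATM and Chk2, which release p53 from Mdm2, so the protein rises with little need for more Trp53 mRNA. Active p53 then raises a set of target genes that stop the cell cycle, repair DNA, restrain growth signalling or kill the cell, and it raises Mdm2 itself as a feedback. Levels of these targets are commonly read as a sign of p53 activity, and in the proximal tubule p53 is known for its part in acute injury.

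None of the p53 pathway genes passed the test between I-PpoI and WT cortex. Of the 36 genes 34 had enough counts to be tested, and 0 were called higher and 0 lower (edgeR's quasi-likelihood test, Benjamini-Hochberg adjustment over all genes, two-sided, threshold 0.05), where 0.136% of the 13977 tested genes were called. DESeq2 called 0 of them higher and 0 lower, where it called 1.34% of all genes. At an unadjusted p under 0.05 there were 3 higher members, Ephx1, Bax and Tnfrsf1a, and 2 lower members, Perp and Sesn2, against 6.42% and 5.61% of all genes, so neither share stands clear of the background. The median log2 fold change was 0.0037 over the tested members and 0.00039 over all genes, and 18 members lay above 0 and 16 below. By role the median was 0.0037 for p53 and its regulators (6 tested genes) and -0.03 for mitochondrial and intracellular death (8). It was -0.16 for death receptors (3), -0.08 for DNA repair (5) and 0.12 for metabolism, growth signalling and autophagy (7). For cell cycle and growth arrest (5) it was 0.01. Of the 3 death receptors 2 lay below 0 and 1, Tnfrsf1a, above. Eda2r, an ectodysplasin receptor grouped here with the death receptors, and Ckap2, a spindle protein, fell below the expression filter. They had 8 to 10 and 3 to 12 read pairs per library.

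The intervals show which changes these libraries would still allow. The 95% interval of the fold change lay within 2-fold in both directions for 31 of the 34 tested members (91.2%, against 87.4% of all genes tested). Its upper end was under a 1.5-fold rise for 28 members (82.4%, against 77.8% of all genes). The intervals that reached past 2-fold were those of Trp53inp1, Sesn2 and Plk3, each on the lower side.

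**Figure D1:**
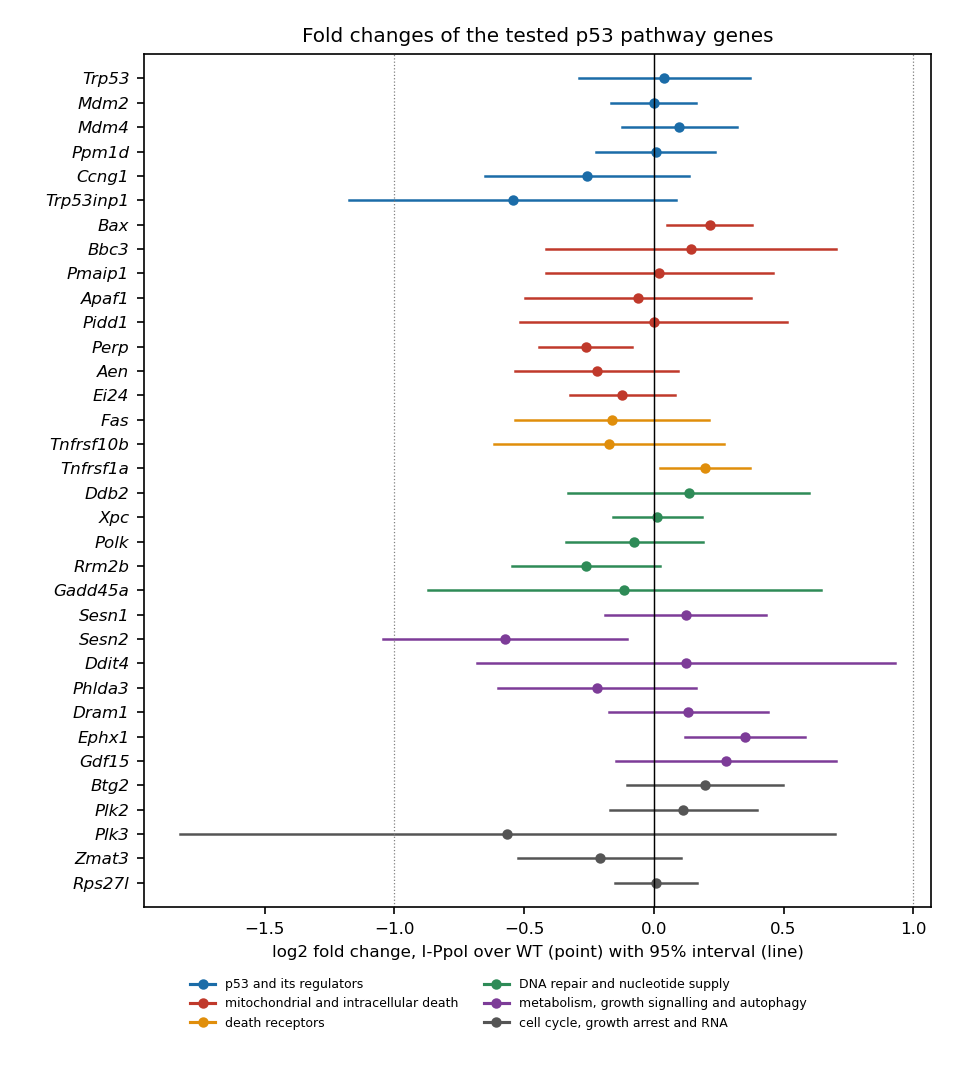
Log2 fold change of I-PpoI over WT for the 34 tested p53 pathway genes, as a point with its 95% interval (line, edgeR), coloured by role; dotted lines mark 2-fold. The intervals of Ephx1, Bax and Tnfrsf1a lie above 0 and those of Perp and Sesn2 below, and none of these passed after adjustment over all genes.

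The library totals were 14290109 to 18045335 assigned read pairs in I-PpoI and 13582540 to 20861021 in WT, so 1 read pair was worth 0.0482 to 0.0757 CPM, the read pairs of a gene scaled to a common library total with TMM factors. The deposited library names take 2 forms, without a hyphen before the last number (plain; I-PpoI 1 and 2, WT 1) or with one (I-PpoI 3, WT 2 and 3). Nothing in the labels says what the form stands for, but the libraries differ along it, so differences within each form stand beside the pooled values. Plain names rest on WT 1 alone, and hyphenated names on I-PpoI 3 alone. Markers of the thick ascending limb and of the collecting duct moved with the groups. The summed level of 8 thick ascending limb markers was 7626 to 7856 CPM in I-PpoI and 5382 to 6146 CPM in WT, and that of 10 collecting duct markers 1115 to 1219.9 CPM in I-PpoI and 809 to 879 CPM in WT, with 7 genes of each list higher in every I-PpoI library (9.23% of all genes tested were). The sum of 12 proximal tubule markers, the cell type that expresses I-PpoI, overlapped at 12752 to 17744 CPM in I-PpoI and 16382 to 22061 CPM in WT. Of these markers 3 were lower and 0 higher in every I-PpoI library (7.74% of all genes tested were lower), and their median log2 fold change was -0.23. The groups also overlapped in the sum of 8 macrophage and monocyte markers, at 136 to 147 CPM in I-PpoI and 121 to 149.5 CPM in WT, and the sums for distal convoluted tubule (1083 to 1325 CPM in I-PpoI and 1227 to 1559 CPM in WT), podocytes (389 to 485 CPM in I-PpoI and 356 to 420.2 CPM in WT), endothelium (339.8 to 384 CPM in I-PpoI and 304 to 353 CPM in WT) and T and B cells (3.47 to 7.36 CPM in I-PpoI and 5.07 to 9.05 CPM in WT) overlapped too. No marker of these lists was at 0 in all libraries. These shifts stand beside every result below, the non-overlapping members included, and their part in the results was not tested.

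p53 binds DNA through paired copies of a short palindromic half-site. RefSeq start-site windows (GRCm38.p6, 250 bases before to 50 after each start) were found for 28 of the 36 genes and scanned for the p53 half-site consensus, which reads the same on both strands. A half-site stood in a window of 12 of these genes (42.9%), against 9.55% of the 27025 genes with such windows. Among the tested genes with a window the share was 8.35%. Counted by window, the shares were 36.1% for the members and 8.36% over all windows of this length. The members were chosen as known genes of the p53 pathway, so a higher share may come with that choice and is not an independent result. The windows are shown with 10 bases on either side of the half-site, in capitals, because p53 binds sequences of this kind. Those of Polk and Sesn1 lie far inside the annotated genes (96480689 to 96542485 and 41810574 to 41908436), not at their outer ends. No member window held a full site, taken as 2 half-sites with 0 to 13 bases between them, which 0.074% of all genes did. The sequences are 5′ to 3′ on the gene's strand, and a match is a description of the letters, not a measured binding site.
Trp53 (chr11:69580274-69580303, + strand): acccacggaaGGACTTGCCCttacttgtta
Mdm2 (chr10:117710925-117710954, - strand): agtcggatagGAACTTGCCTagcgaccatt
Ppm1d (chr11:85311112-85311141, + strand): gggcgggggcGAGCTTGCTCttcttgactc
Ccng1 (chr11:40755452-40755481, - strand): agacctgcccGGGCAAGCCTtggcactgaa
Aen (chr7:78895927-78895956, + strand): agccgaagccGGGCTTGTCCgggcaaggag
Ei24 (chr9:36797325-36797354, - strand): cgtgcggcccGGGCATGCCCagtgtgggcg
Polk (chr13:96519399-96519428, - strand): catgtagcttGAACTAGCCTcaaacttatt
Gadd45a (chr6:67037428-67037457, - strand): ggttggctgaGGGCTAGCCCcatatctccg
Sesn1 (chr10:41887256-41887285, + strand): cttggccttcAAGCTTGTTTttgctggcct
Rps27l (chr9:66946193-66946222, + strand): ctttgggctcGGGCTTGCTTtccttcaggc
Rps27l (chr9:66946296-66946325, + strand): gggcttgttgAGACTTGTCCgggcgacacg
Cdkn1a (chr17:29090896-29090925, + strand): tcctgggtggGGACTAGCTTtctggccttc
Cdkn1a (chr17:29090918-29090947, + strand): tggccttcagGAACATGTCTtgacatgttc
The last pair of lines is from Cdkn1a, which encodes the cell cycle inhibitor p21 and is not one of the 36 genes. It is shown because p21 is the best known p53 target. The 2 half-sites in capitals lie in the same window, close enough to count as a full site by that spacing. The 250 bases before the start are shown for Bax and Ephx1, the members with the smallest p among those higher in I-PpoI. Bax holds a half-site (in capitals) and Ephx1 none.
Bax (chr7:45466899-45467148, - strand): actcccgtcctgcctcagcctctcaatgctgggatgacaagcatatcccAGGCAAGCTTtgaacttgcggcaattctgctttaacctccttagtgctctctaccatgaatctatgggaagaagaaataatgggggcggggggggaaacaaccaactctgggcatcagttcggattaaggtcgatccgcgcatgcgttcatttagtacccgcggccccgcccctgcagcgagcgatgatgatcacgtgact
Ephx1 (chr1:181017570-181017819, - strand): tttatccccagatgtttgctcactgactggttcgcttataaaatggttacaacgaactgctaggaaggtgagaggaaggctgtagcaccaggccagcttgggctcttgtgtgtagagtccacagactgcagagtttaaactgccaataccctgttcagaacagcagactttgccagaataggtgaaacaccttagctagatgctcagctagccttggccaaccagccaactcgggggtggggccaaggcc
The Ckap2 window also held a half-site.

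p53 and its regulators did not separate the groups, and the interval of Mdm2 was among the narrowest. Trp53 (chromosome 11, 69580359 to 69591873, mm10) was at 39.4, 40.99 and 29.5 CPM in I-PpoI libraries 1, 2 and 3, against 30.6, 36.3 and 40.3 CPM in WT libraries 1, 2 and 3. The groups overlapped, with I-PpoI 3 the lowest library of all. Its log2 fold change was 0.04 ± 0.14 (SE; 95% interval -0.29 to 0.37, edgeR adjusted p = 0.928), and the log2 difference of I-PpoI minus WT was 0.39 within plain and -0.37 within hyphenated names, so its sign differed between the forms. Mdm2 (chromosome 10, 117688875 to 117710758), the feedback target and ubiquitin ligase, was at 50.01, 46.3 and 46.8 CPM in I-PpoI libraries 1, 2 and 3, against 48.9, 47.6 and 46.7 CPM in WT libraries 1, 2 and 3. These 6 values lay within 1.08-fold of each other, and the interval of the log2 fold change was -0.16 to 0.16 (edgeR adjusted p = 0.99996). Mdm4, a relative of Mdm2 that holds p53 inactive, and Ppm1d (Wip1), a phosphatase that switches the damage signal off and is itself a target, had log2 fold changes of 0.10 ± 0.10 and 0.01 ± 0.10. Mdm4 averaged 61.4 ± 4.30 CPM in I-PpoI and 57.3 ± 5.99 CPM in WT (SD, n = 3 each). The range over the 6 libraries was 13.7 to 14.95 CPM for Ppm1d, so this gene was nearly as steady as Mdm2.

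Ccng1 and Trp53inp1 differed among the libraries of one group more than between the groups. Ccng1 (chromosome 11, 40748552 to 40755286) encodes cyclin G1, which helps Mdm2 restrain p53, and with 42.1 CPM per kb of exon had the highest level per length of the regulators. It was at 120.2, 107 and 174 CPM in I-PpoI libraries 1, 2 and 3, against 142, 177 and 161 CPM in WT libraries 1, 2 and 3. I-PpoI 1 and 2 were below all WT libraries and I-PpoI 3 was among them. The log2 fold change was -0.26 ± 0.17 (edgeR adjusted p = 0.557). Trp53inp1 (chromosome 4, 11156441 to 11174377), a stress protein that promotes p53 phosphorylation and autophagy, was at 25.1, 17.8 and 43.2 CPM in I-PpoI libraries 1, 2 and 3, against 46.6, 43.9 and 34.5 CPM in WT libraries 1, 2 and 3. Again I-PpoI 1 and 2 were lowest, and the log2 fold change of -0.54 ± 0.28 (edgeR adjusted p = 0.456) was -1.13 within plain and 0.15 within hyphenated names.

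Among the genes of cell death, Bax was slightly higher and Perp slightly lower in I-PpoI, without passing the test. Bax (chromosome 7, 45461695 to 45466898), which permeabilizes the outer mitochondrial membrane, was at 50.6, 51.04 and 47.1 CPM in I-PpoI libraries 1, 2 and 3, against 42.04, 42.8 and 43.3 CPM in WT libraries 1, 2 and 3. All 3 I-PpoI libraries were above all 3 WT libraries, and the log2 fold change was 0.22 ± 0.07 (edgeR adjusted p = 0.329), or 0.27 within plain and 0.13 within hyphenated names. Perp (chromosome 10, 18845071 to 18857072), a membrane protein of desmosomes that p53 raises in dying cells, was at 74.2, 69.6 and 79.2 CPM in I-PpoI libraries 1, 2 and 3, against 92.03, 90.5 and 84.9 CPM in WT libraries 1, 2 and 3. Here all I-PpoI libraries were below all WT libraries, and the log2 fold change was -0.26 ± 0.08 (edgeR adjusted p = 0.285), or -0.36 within plain and -0.15 within hyphenated names. Over all tested members, 3 were higher and 1 lower in every I-PpoI library than in every WT library, against 9.23% and 7.74% of all genes. The share higher was near that background and the share lower was below it.

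The remaining death genes overlapped between the groups. The BH3-only proteins Bbc3 (PUMA) and Pmaip1 (NOXA) set Bax free and are among the most p53-dependent killers. Bbc3 was the scarcer of them. Bbc3 was at 4.92, 5.63 and 2.83 CPM in the I-PpoI libraries, against 4.19, 4.16 and 3.88 CPM in the WT libraries, with I-PpoI 3 the lowest of all libraries. Pmaip1 was at 8.57, 15.01 and 12.8 CPM in the I-PpoI libraries, against 12.2, 12.3 and 11.3 CPM in the WT libraries, so the WT values lay inside the range of the I-PpoI values. Their log2 fold changes were 0.14 ± 0.25 and 0.02 ± 0.19. Apaf1, the scaffold of the apoptosome, and Pidd1, the scaffold of the PIDDosome that activates caspase-2, were about as scarce as Bbc3. Apaf1 averaged 4.91 ± 0.302 CPM in I-PpoI and 5.07 ± 1.11 CPM in WT, and Pidd1 averaged 4.69 ± 1.052 CPM in I-PpoI and 4.68 ± 1.01 CPM in WT (SD, n = 3 each), with 95% intervals of the log2 fold change of -0.50 to 0.37 and -0.51 to 0.51. Aen, a nuclease of apoptotic nuclei, was at 19.1, 17.99 and 21.8 CPM in the I-PpoI libraries, against 18.7, 24.99 and 24.95 CPM in the WT libraries (log2 fold change -0.22 ± 0.14). The 3 plain-named libraries were the lowest, I-PpoI 3 came next and WT 2 and 3 were highest. Ei24 (chromosome 9, 36779153 to 36797393), an endoplasmic reticulum protein with a part in autophagy, had the highest level per length of the death genes, at 74.9 CPM per kb. It was at 164, 159 and 171 CPM in the I-PpoI libraries, against 162, 182 and 193 CPM in the WT libraries, with overlapping groups, and the log2 fold change was -0.12 ± 0.09 (edgeR adjusted p = 0.585).

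Of the death receptors, Tnfrsf1a was higher in every I-PpoI library and Fas and Tnfrsf10b overlapped. Tnfrsf1a (chromosome 6, 125349723 to 125362483), the TNF receptor TNFR1 of most cell types, was at 88.2, 95.2 and 84.1 CPM in I-PpoI libraries 1, 2 and 3, against 75.7, 79.9 and 77.8 CPM in WT libraries 1, 2 and 3. The lowest I-PpoI library was thus just above the highest WT library, and the log2 fold change was 0.20 ± 0.08 (edgeR adjusted p = 0.376), or 0.28 within plain and 0.09 within hyphenated names. Fas, the receptor of Fas ligand, was at 12.97, 9.32 and 14.8 CPM in the I-PpoI libraries, against 13.5, 14.2 and 13.7 CPM in the WT libraries, with I-PpoI 2 low and I-PpoI 3 the highest of all. Tnfrsf10b, the mouse TRAIL receptor, was at 2.94 ± 0.467 CPM in I-PpoI and 3.29 ± 0.223 CPM in WT (SD, n = 3 each). Log2 fold changes were -0.16 ± 0.16 for Fas and -0.17 ± 0.19 for Tnfrsf10b. Eda2r, on the X chromosome, was below the filter at 0.524 ± 0.160 CPM in I-PpoI and 0.512 ± 0.0830 CPM in WT.

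**Figure D2:**
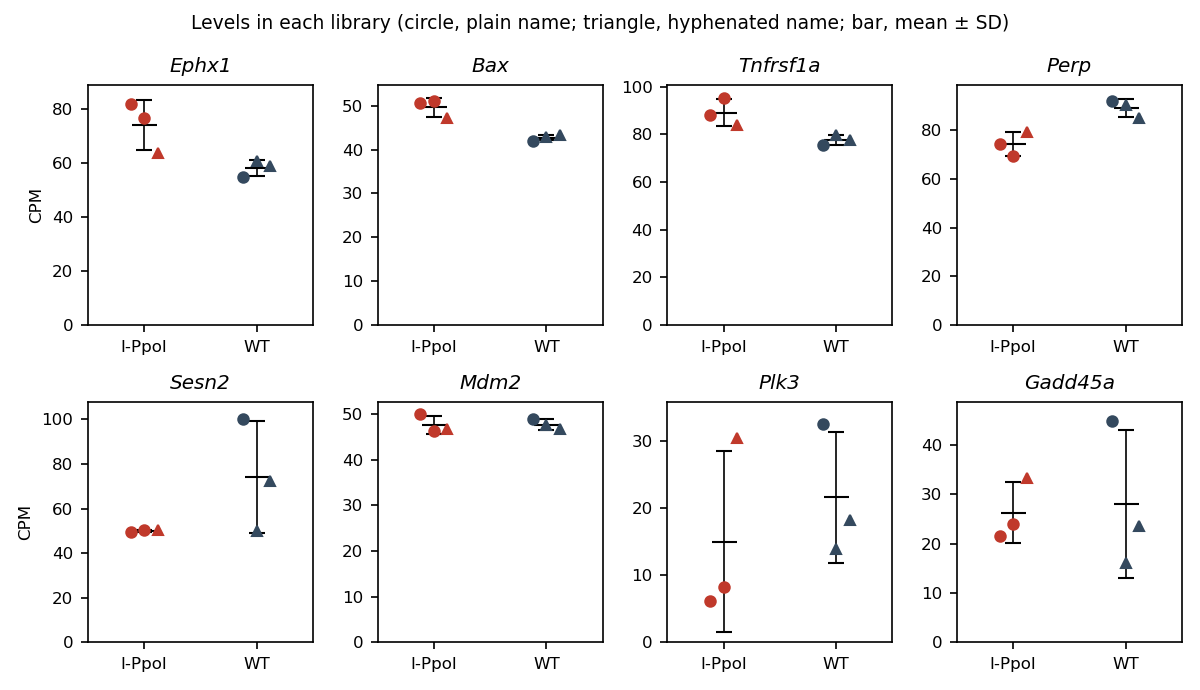
CPM in each library for 8 members, I-PpoI left of WT; circles are libraries with plain names, triangles those with hyphenated names, and the black bar is the mean ± SD of 3. Ephx1, Bax and Tnfrsf1a are higher and Perp lower in every I-PpoI library, the 6 Mdm2 values nearly coincide, and Plk3, Gadd45a and Sesn2 vary mostly among the libraries of one group.

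The repair genes that p53 controls did not separate the groups. Xpc, the damage sensor of nucleotide excision repair, was one of the steadiest members, at 54.6, 51.9 and 54.5 CPM in the I-PpoI libraries, against 53.02, 56.3 and 50.4 CPM in the WT libraries (log2 fold change 0.01 ± 0.07). Ddb2, which finds ultraviolet lesions in chromatin, was at 7.62, 7.17 and 5.24 CPM in the I-PpoI libraries, against 6.89, 4.62 and 6.67 CPM in the WT libraries, and 33.5% of its exon length overlaps exons of Acp2 on the other strand, from which unstranded counts cannot be separated. The Ddb2 groups overlapped (log2 fold change 0.13 ± 0.20). Polk, a translesion DNA polymerase, averaged 8.68 ± 0.292 CPM in I-PpoI and 9.13 ± 0.566 CPM in WT (SD, n = 3 each; log2 fold change -0.08 ± 0.12). Rrm2b (chromosome 15, 37923953 to 37961055), the p53-controlled subunit of ribonucleotide reductase that supplies nucleotides to resting cells, was at 21.9, 20.7 and 28.3 CPM in the I-PpoI libraries, against 26.9, 29.6 and 28.2 CPM in the WT libraries. I-PpoI 1 and 2 were below all WT libraries and I-PpoI 3 was level with them, and the log2 fold change was -0.26 ± 0.12 (edgeR adjusted p = 0.442). Gadd45a (chromosome 6, 67035096 to 67037407), a stress sensor that acts in repair and in MAP kinase signalling, had the highest level per length of this group, at 22.2 CPM per kb. It was at 21.5, 24.1 and 33.2 CPM in I-PpoI libraries 1, 2 and 3, against 44.8, 15.98 and 23.5 CPM in WT libraries 1, 2 and 3. The highest and the lowest library were both WT, 2.80-fold apart, and the log2 fold change of -0.11 ± 0.33 (edgeR adjusted p = 0.907) was -0.97 within plain and 0.78 within hyphenated names. Of its exon length 19.4% overlaps exons of E230016M11Rik on the other strand, so its level is less certain, in a direction that was not tested.

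In the group of metabolic and growth-signalling targets, Ephx1 was higher and Sesn2 lower in I-PpoI at an unadjusted p under 0.05, and neither passed after adjustment. Ephx1 (chromosome 1, 180989556 to 181017495), the microsomal epoxide hydrolase that detoxifies epoxides, had the smallest p of all members. It was at 81.7, 76.7 and 63.7 CPM in I-PpoI libraries 1, 2 and 3, against 54.9, 60.6 and 58.8 CPM in WT libraries 1, 2 and 3. All I-PpoI libraries were higher, but I-PpoI 3 by little. The log2 fold change was 0.35 ± 0.10 (edgeR adjusted p = 0.267), or 0.53 within plain and 0.09 within hyphenated names. Sesn2 (chromosome 4, 132492807 to 132510456), a leucine sensor that inhibits mTORC1 and is also raised by amino acid shortage, was at 49.5, 50.3 and 50.3 CPM in I-PpoI libraries 1, 2 and 3, against 100.2, 50.1 and 72.3 CPM in WT libraries 1, 2 and 3. The I-PpoI libraries were nearly identical, WT 2 was level with them and WT 3 and WT 1 were higher, so the groups overlapped. The log2 fold change was -0.57 ± 0.21 (95% interval -1.04 to -0.10, edgeR adjusted p = 0.352), or -1.004 within plain and -0.26 within hyphenated names. Without WT 1 it was -0.30 (edgeR adjusted p = 0.372).

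Sesn1, the sestrin most tied to p53, did not follow Sesn2. It was at 21.9, 18.4 and 17.4 CPM in the I-PpoI libraries, against 20.4, 15.5 and 16.98 CPM in the WT libraries (log2 fold change 0.12 ± 0.14), with overlapping groups. Ddit4 (REDD1), which inhibits mTORC1 under stress and answers glucocorticoids and low oxygen as well as p53, was at 15.3, 14.9 and 39.8 CPM in the I-PpoI libraries, against 25.4, 18.1 and 19.8 CPM in the WT libraries. I-PpoI 3 stood above all others, and the log2 fold change of 0.12 ± 0.35 was -0.75 within plain and 1.07 within hyphenated names. Phlda3, an inhibitor of the kinase Akt, averaged 5.58 ± 0.535 CPM in I-PpoI and 6.48 ± 1.02 CPM in WT (SD, n = 3 each; log2 fold change -0.22 ± 0.17). Dram1, a lysosomal regulator of autophagy, averaged 8.16 ± 0.693 CPM in I-PpoI and 7.43 ± 0.668 CPM in WT (log2 fold change 0.13 ± 0.13). Neither separated the groups. Gdf15 (chromosome 8, 70629394 to 70631635), a secreted stress hormone that rises in kidney injury, was at 15.03, 12.5 and 10.1 CPM in the I-PpoI libraries, against 12.6, 9.54 and 8.87 CPM in the WT libraries (log2 fold change 0.28 ± 0.19, edgeR adjusted p = 0.559). I-PpoI 1 was highest, but WT 1 was level with I-PpoI 2, so the groups overlapped.

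The tested cell cycle and growth arrest genes overlapped between the groups. Rps27l (chromosome 9, 66946118 to 66949509), a ribosomal protein paralogue that is a p53 target, had the highest level per length of all 36 genes, at 283 CPM per kb. It was at 135, 130.4 and 129 CPM in the I-PpoI libraries, against 129, 131 and 132 CPM in the WT libraries, within 1.045-fold over all libraries (log2 fold change 0.01 ± 0.07). Its paralogue Rps27 is very similar, so reads may be shared and the level is uncertain. Zmat3 (chromosome 3, 32334794 to 32365665), an RNA-binding protein that acts in growth suppression by p53, was at 21.7, 22.6 and 28.9 CPM in the I-PpoI libraries, against 24.5, 28.6 and 31.3 CPM in the WT libraries (log2 fold change -0.21 ± 0.14, edgeR adjusted p = 0.551). Btg2, an antiproliferative partner of deadenylases, was at 27.9, 31.8 and 26.4 CPM in the I-PpoI libraries, against 29.9, 22.6 and 22.5 CPM in the WT libraries (log2 fold change 0.20 ± 0.13). Plk2, a stress-induced polo-like kinase, averaged 10.8 ± 0.448 CPM in I-PpoI and 9.98 ± 1.12 CPM in WT (SD, n = 3 each; log2 fold change 0.11 ± 0.12). Its relative Plk3 was the most variable member, at 6.19, 8.28 and 30.5 CPM in the I-PpoI libraries, against 32.6, 13.9 and 18.2 CPM in the WT libraries. I-PpoI 3 and WT 1 were both high and I-PpoI 1 and 2 both low, a 5.26-fold range, and the log2 fold change of -0.57 ± 0.55 was -2.17 within plain and 0.93 within hyphenated names. Plk3 and Zmat3 share 3.21% and 2.08% of their exon length with genes on the other strand. Ckap2, expressed in dividing cells, was too scarce to test, at 0.332 ± 0.157 CPM in I-PpoI and 0.569 ± 0.0348 CPM in WT. Its few read pairs gave lower values in every I-PpoI library.

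Much of the variation of the pathway was among libraries rather than between groups. The mean of the members' log2 CPM, each centred over the 6 libraries, was -0.06, -0.08 and 0.05 in I-PpoI and 0.13, -0.05 and 0.01 in WT. The group means differed by -0.06, less than the pooled SD of 0.08 (0.014 and 0.016 over all genes). The medians of the members' centred values were 0.020, -0.034 and 0.0046 in I-PpoI 1, 2 and 3. In WT 1, 2 and 3 they were 0.058, -0.0042 and -0.0027. I-PpoI 1 thus lay below 0 by the mean and above 0 by the median. The highest value of a member was in I-PpoI 1, 2 and 3 for 8, 7 and 2 of 34 members and in WT 1, 2 and 3 for 8, 5 and 4. Over all genes these shares were 15.3%, 22.4% and 15.1% in I-PpoI and 18.2%, 13.5% and 15.5% in WT. The members that spanned more than 2-fold over the libraries were Plk3, Gadd45a, Ddit4, Trp53inp1 and Sesn2, 5 of 34 (14.7%, against 15% of all genes). WT 1 was the highest of the 6 libraries for each of them except Ddit4, for which I-PpoI 3 was.

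**Figure D3:**
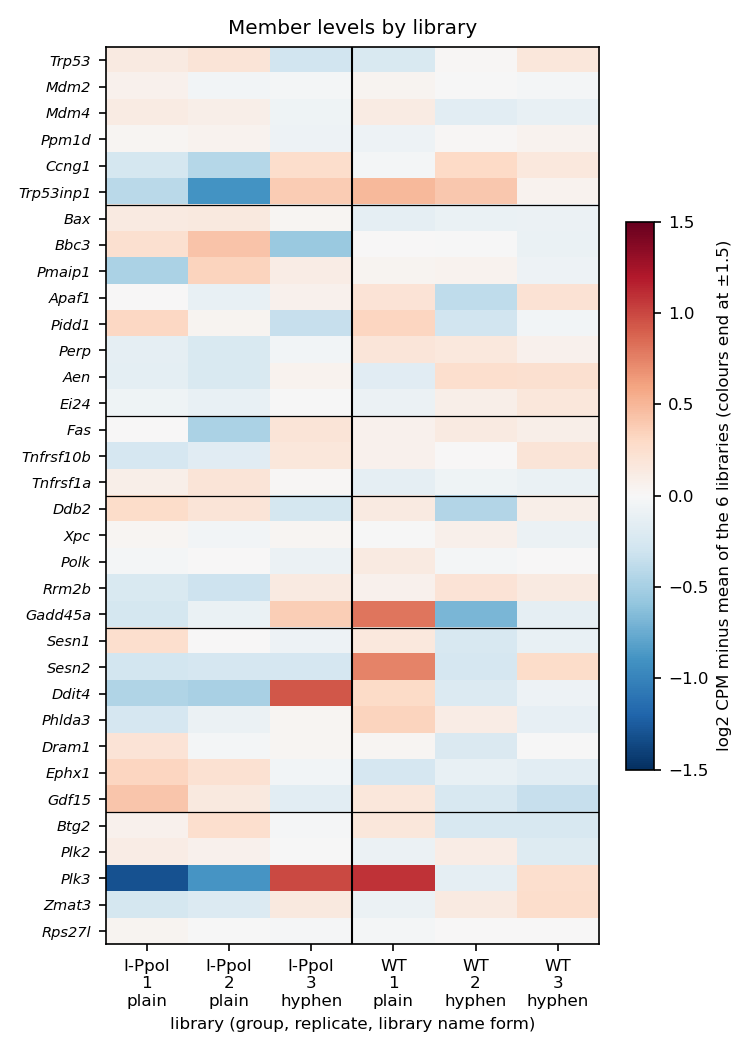
Log2 CPM of the tested members minus the gene's mean over the 6 libraries (colour), with I-PpoI libraries left of WT libraries and genes in role order, split by thin lines. Plk3, Gadd45a, Ddit4, Trp53inp1 and Sesn2 carry the strongest colours, and Mdm2, Xpc, Ppm1d and Rps27l next to none.

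No member passed the test between library name forms either. Between hyphenated and plain names, with the group in the model, 0 members passed where 3.06% of all genes did, and at an unadjusted p under 0.05 4 members were higher and 5 lower, against 9.82% and 9.01% of all genes. Ccng1 had the smallest p, with a log2 difference of 0.43 ± 0.10 (edgeR adjusted p = 0.0516). The next smallest p were those of Zmat3, Gdf15 and Aen (the last pair chosen after their values were seen), at 0.34, -0.45 and 0.33. The I-PpoI minus WT difference had opposite signs in the 2 forms for 18 of 34 members (52.9%, against 47.5% of all genes). The median difference was -0.02 within plain and 0.04 within hyphenated names. With the name form as a term 0 members passed and 3 higher and 2 lower ones had an unadjusted p under 0.05 (smallest edgeR adjusted p = 0.151, for Sesn2 at -0.66 ± 0.18), where 0.458% of all genes passed and 12.6% had such a p in either direction.

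**Figure D4:**
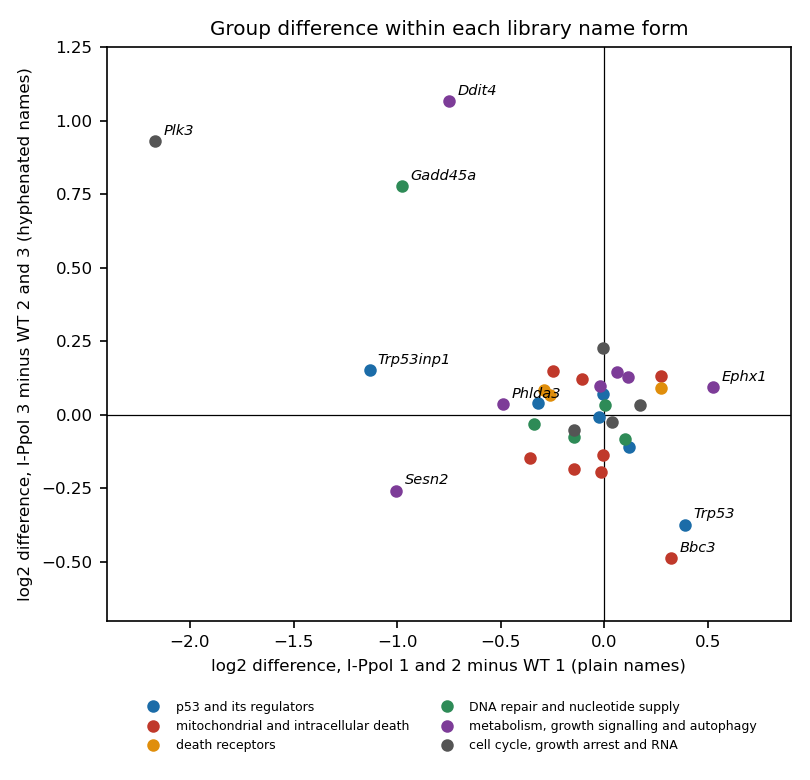
Log2 difference of I-PpoI minus WT within plain-named libraries (x axis) and within hyphenated ones (y axis), one point per tested member, coloured by role. Plk3, Ddit4 and Gadd45a lie below 0 on the x axis and above 0 on the y axis, Trp53 and Bbc3 the other way, and most members sit near the origin.

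One library decided whether any member was called. Leaving out I-PpoI 3 sets I-PpoI 1 and 2, with plain names only, against WT 1 (plain) and WT 2 and 3 (hyphenated). Group and name form are thus partly mixed in that fit, and their parts cannot be told apart. It tested 14219 genes, with Ckap2 in addition to the 34 members of the main fit. In it 5 members passed, 1 higher and 4 lower, where 1.84% and 2.56% of all genes were called. The share lower was above that background, and the share higher rested on Ephx1 alone. Ephx1 rose in that fit, by 0.45 ± 0.08 on the log2 scale (edgeR adjusted p = 0.0285). Trp53inp1 (-0.95 ± 0.17), Plk3 (-1.59 ± 0.34), Ccng1 (-0.49 ± 0.11) and Rrm2b (-0.40 ± 0.09) fell in it, with edgeR adjusted p from 0.0317 to 0.0491. Mdm2 was at 0.02 ± 0.08 in the same fit. Leaving out any other library gave no call among the members.

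Beyond the 36 genes, 50 other genes of the pathway were in the table and 45 were tested. They were listed with earlier results of these data known, so the share called may reflect the choice. Of the 45 tested, 1 rose and 0 fell, where 0.136% of all genes rose. At an unadjusted p under 0.05 there were 2 above and 3 below 0, against 6.42% and 5.61% of all genes. The median log2 fold change of the 45 was -0.00063. The gene that rose was Cd82 (chromosome 2, 93419102 to 93462950), a tetraspanin known as a metastasis suppressor and reported as a p53 target in human cells. It was at 143, 145 and 186 CPM in I-PpoI libraries 1, 2 and 3, against 85.9, 96.2 and 87.01 CPM in WT libraries 1, 2 and 3. The log2 fold change was 0.82 ± 0.11 (edgeR adjusted p = 0.0496). All I-PpoI libraries were above all WT libraries, with 0.75 within plain and 1.02 within hyphenated names. The call was lost on leaving out any library but I-PpoI 3. Without I-PpoI 1, I-PpoI 2 or WT 3, 0 genes of the whole table were called higher. The Cd82 call was also lost on filtering at 1 CPM in 3 libraries, with DESeq2's size factors and in limma on the deposited log2 values. It was kept by DESeq2 (DESeq2 adjusted p = 3.73e-07). The name form term, no low-count filter, upper-quartile factors and the replicate block kept it too (edgeR adjusted p = 0.0106, 0.0173, 0.0384 and 0.0464). Cdkn1a (p21), the target that holds the cell cycle, was at 18.7, 22.95 and 22.5 CPM in I-PpoI libraries 1, 2 and 3, against 34.7, 12.8 and 19.4 CPM in WT libraries 1, 2 and 3. WT held both its highest and its lowest library, as for Gadd45a, and the log2 fold change was -0.08 ± 0.30 (edgeR adjusted p = 0.933), -0.74 within plain and 0.51 within hyphenated names. Bid, a BH3-only protein cut by caspase-8, was at 74.2, 79.7 and 85.96 CPM in the I-PpoI libraries, against 92.3, 95.6 and 101 CPM in the WT libraries (log2 fold change -0.27 ± 0.08, edgeR adjusted p = 0.290), and Casp9, the caspase of the apoptosome, at 29.3, 28.1 and 38.8 CPM in the I-PpoI libraries, against 41.1, 38.6 and 41.7 CPM in the WT libraries (-0.34 ± 0.12, edgeR adjusted p = 0.352). Bid was lower in every I-PpoI library, and the Casp9 groups overlapped. The 11 tested upstream genes include the kinases Atm, Atr and Chek2 that signal breaks to p53. Of these 11, 0 passed in either direction. At an unadjusted p under 0.05 there were 0 of them, against 12% of all genes in either direction. Cdkn2a, which encodes the Mdm2 inhibitor ARF and the cell cycle inhibitor p16, had 1 read pair in all 6 libraries.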

How the data were processed

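RNA was measured in kidney cortex of I-PpoI and WT mice, 3 libraries each, from stranded TruSeq mRNA libraries read as pairs on an Illumina NovaSeq, per the labels' protocols. The authors deposited raw read pair counts per gene, mapped with HISAT2 (per the labels) and counted over exons with featureCounts 1.5.2 per the file headers, with no strand option, so reads of overlapping genes on opposite strands are not separated. The labels name mm9, but the header names a UCSC mm10 annotation, and coordinates are given as mm10. The authors also deposited log2 values, rlog by the table's own name, and the submitters' processing notes name DESeq2. These served 1 alternative only.

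Counts were tested in R 4.3.3 with edgeR 4.0.16 (expression filter with a minimum count of 10, TMM factors, quasi-likelihood test, two-sided, Benjamini-Hochberg adjustment over 13977 genes), and the procedure was tested on simulated counts. Intervals are 95% Wald intervals from that fit. Alternatives used DESeq2 1.42.0 and limma 3.58.1. CPM are counts scaled to a common TMM-adjusted library total, and within-form differences use log2 CPM with a prior count of 2. The members, their roles, the other pathway genes and the markers were chosen with earlier results of these data known. Full statistics are given for Trp53, Mdm2, members with an unadjusted p under 0.05 and, in each role, the members with the smallest p and the highest level per kb, and for Cdkn1a, other pathway genes that passed and the 3 with the smallest p. Further genes with values, Plk3, Ddit4 and Gdf15 among them, were chosen after their values were seen. No 2 libraries of a group agreed within sampling noise.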

Additional observations from a re-analysis of the deposited data

How the results depend on the processing

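Over the 36 genes, 0 calls were made under the main settings and under each of the 8 alternatives that kept all libraries (DESeq2's size factors, upper-quartile factors, no low-count filter, a CPM of at least 1 in 3 libraries, DESeq2, limma on the deposited log2 values, the library name form as a term and the replicate block). Leaving out 1 library gave 0 to 1 higher and 0 to 4 lower calls among them, all without I-PpoI 3, and a median log2 fold change of -0.019 to 0.014. Over all genes, 19 higher and 0 lower calls became 44 and 3 with no low-count filter, 128 and 59 by DESeq2, 49 and 15 with a term for the name form and 33 and 7 with the replicate block, and ran over 0 to 261 and 0 to 364 when 1 library was left out. Among the other pathway genes, the 1 higher call (Cd82) became 0 with DESeq2's size factors, with the CPM filter and with limma on the log2 values, and 0 to 2 higher and 0 to 1 lower without 1 library; without I-PpoI 3 Gadd45b joined Cd82 and Casp9 fell. The cause was not tested. The labels do not say whether same-numbered libraries were paired. The correlations of their deviations from the group means, at 0.22, -0.13 and 0.16, are too few to decide it. The block called none of the 36 genes. Of the log2 fold changes near 0, that of Mdm2 turned to -0.00282, -0.00139, -0.00323, -0.00230, -0.016 and -0.000405 under DESeq2's size factors, no filter, DESeq2, limma on the log2 values, the name form term and the replicate block. Leaving out 1 library gave -0.036 to 0.020 for Mdm2, -0.063 to 0.17 for Trp53, -0.010 to 0.023 for Rps27l and -0.38 to 0.40 for Gadd45a. Depth limits Bbc3, Tnfrsf10b, Pidd1, Apaf1, Eda2r and Ckap2 most, and with 3 libraries in each group intervals rest on few samples.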
